A study of Rattus norvegicus with 48 samples.

Results

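6 genes that glucocorticoids induce or act through, Fkbp5, Sgk1, Tsc22d3, Zbtb16, Nr3c1 and Klf9, were followed in 2 tissues, brain cortex and liver, of Sprague-Dawley rats, all male, after 1 oral dose of RDX. RDX is a nitramine explosive. Members were taken by name, as the probe sets to which the array's annotation assigns a single symbol from these 6. 9 of the 31042 probe sets tested carried such a symbol, and they covered 5 of the 6 genes, of 14217 genes with a single symbol in all. No probe set was assigned to Zbtb16, which is therefore not described. Fkbp5 had 2 probe sets, Sgk1 and Tsc22d3 had 1 each, Nr3c1 had 2 and Klf9 had 3. In each tissue the probe set with the highest mean represents its gene, and it was the same probe set in both tissues.

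Rats, housed in pairs with food and water freely available, were given RDX by mouth in a gel capsule at 3 mg/kg or at 18 mg/kg, doses described as too low for seizures. Tissue was taken at 0, 4, 24 or 48 h. The 48 arrays form 16 groups of 3, 1 for each tissue, dose and time, and the 0 h group of the same dose is the control. The labels name no group given an empty capsule, so dosing, handling and the hour at which tissue was taken cannot be told apart from RDX in any change from 0 h. Nor do they say whether cortex and liver arrays with the same number came from 1 rat, and p-values measure only the spread between arrays.

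Glucocorticoids, chiefly corticosterone in the rat, bind the glucocorticoid receptor, the protein of Nr3c1, which waits in the cytosol with Hsp90 chaperones and moves to the nucleus to switch on its targets. Fkbp5 encodes a co-chaperone that lowers the receptor's affinity for hormone and so closes a feedback loop. Klf9 is a zinc finger transcription factor that also responds to thyroid hormone and to the clock. Sgk1 is a kinase acting on ion channels and transporters, and Tsc22d3 (GILZ) carries part of the hormone's anti-inflammatory action. Corticosterone follows a daily rhythm and rises with stress, and many liver genes follow it.

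Fkbp5 and Klf9 had the largest increases among members in liver 4 h after dosing, averaged over doses, so the 250 bases before their RefSeq start sites (build GRCr8) are shown, 5′ to 3′ on the strand of the gene. Fkbp5 lies on the minus strand at chr20:6543556-6543805, and Klf9 on the plus strand at chr1:230126396-230126645. Capitals mark GGGCGG or its reverse complement CCGCCC, the GC box that Sp1 and Krueppel-like factors bind.
Fkbp5: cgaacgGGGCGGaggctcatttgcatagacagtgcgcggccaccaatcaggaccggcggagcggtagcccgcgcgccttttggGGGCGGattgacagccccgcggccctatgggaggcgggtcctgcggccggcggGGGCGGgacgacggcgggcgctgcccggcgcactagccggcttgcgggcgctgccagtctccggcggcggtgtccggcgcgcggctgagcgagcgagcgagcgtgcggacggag
Klf9: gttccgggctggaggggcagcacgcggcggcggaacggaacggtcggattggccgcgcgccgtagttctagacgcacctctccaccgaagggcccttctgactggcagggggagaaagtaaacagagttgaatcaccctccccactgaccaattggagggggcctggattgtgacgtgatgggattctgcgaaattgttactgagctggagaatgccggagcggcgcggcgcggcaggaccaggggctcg
The Fkbp5 window holds 3 GC boxes and the Klf9 window 0. Of 10 RefSeq promoter windows of 300 bases found for 5 members, 7 held the GC box, and 33.1% of all 33469 windows of that length held it. Some genes have several windows, and those 7 belong to 4 of the 5 genes. None of the 10 held the palindromic glucocorticoid response element, which 5 windows of the whole set held (0.0149%). None held its half-site AGAACA on either strand (20.7% of all windows did) or the clock E-box CACGTG (6.42% did). The half-site is part of the full element. The GC box was added after the other motifs had given no match.

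Both tissues carried their defining markers. Mean log2 intensity of 6 neuronal markers was 10.4 to 11 in cortex and 4.68 to 5.72 in liver. 8 hepatocyte markers averaged 11.1 to 13.8 in liver arrays. They also ran from 4.95 to 11.3 in cortex arrays, where 6 arrays exceeded 8. These were 3 mg/kg replicate 1 at 4 h and at 48 h, and 18 mg/kg replicate 2 at 4 h, replicate 1 at 24 h and replicates 2 and 3 at 48 h. In liver 2 arrays stood apart, 3 mg/kg 0 h replicate 2 and 18 mg/kg 4 h replicate 1. Their log2 values spread over a smaller range, with SDs over all probe sets of 1.49 and 1.38 against 1.82 to 2.08 in the other 22, and they are called compressed.

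In liver, no member passed the test at 4 h with all arrays in the fit, and Klf9 did once the 2 compressed arrays were left out, at 1.98-fold the 0 h level. Fkbp5, at the probe set that represents it, was higher in every 4 h array than in the 0 h arrays of the same dose arm, without reaching the threshold. Its second probe set overlapped 0 h in both arms. The threshold was an adjusted p of 0.05 in limma after Benjamini-Hochberg correction over all probe sets. Averaged over both doses, 0 of 5 members were called at 4 h against 0.0934% of probe sets, and 2 of 5 had an unadjusted p under 0.05 against 8.92%. Without the compressed arrays 1 of 5 was called against 0.274%. The median member change at 4 h was 0.25 on the log2 scale, against 0.025 over all genes, and 0.17 against 0.035 without the compressed arrays. Over the separate doses, 0.0226%, 0% and 9.34% of probe sets were called at 4, 24 and 48 h after 3 mg/kg, and 0.0258%, 0% and 0.0966% after 18 mg/kg. Fewer expressing cells and less RNA per cell cannot be told apart in such tissue samples.

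**Figure D1:**
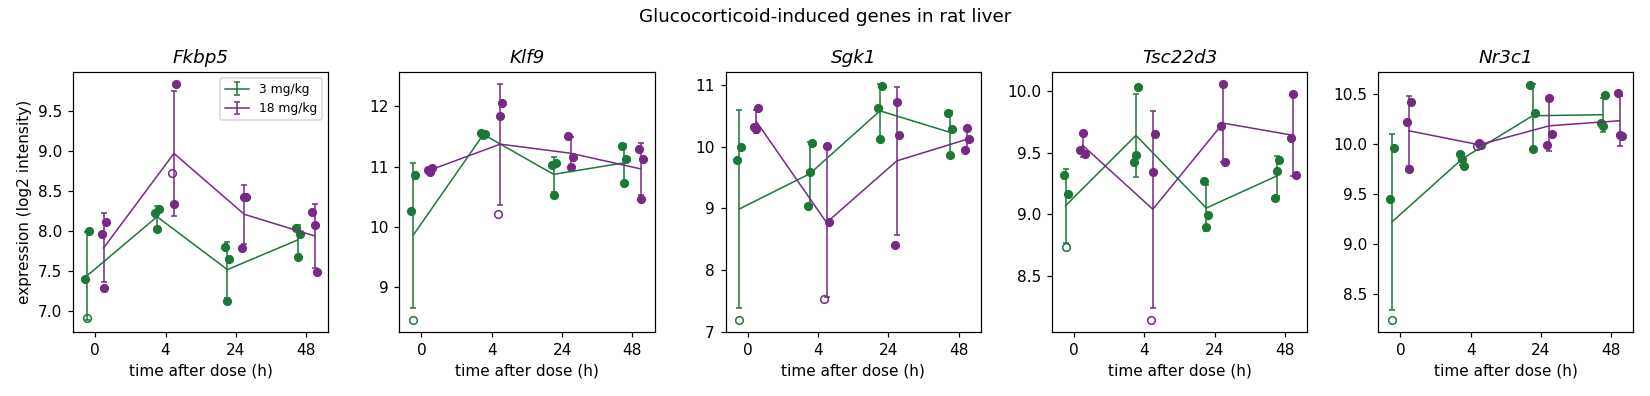
Log2 intensity of the 5 measured members in liver by hours after dosing. Points are arrays (green 3 mg/kg, purple 18 mg/kg, open for the 2 compressed arrays), lines join group means and bars are SDs of 3 arrays. Fkbp5 and Klf9 peak at 4 h in either dose arm once the open points are set aside.

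Klf9 in liver read 10.27, 8.46 and 10.86 at 0 h in the 3 mg/kg arm, the middle value from a compressed array, and 11.55, 11.52 and 11.53 at 4 h. All 4 h arrays lay above all 0 h arrays, as for 9.51% of probe sets. In the 18 mg/kg arm it read 10.95, 10.91 and 10.98 at 0 h, then 10.22, 11.84 and 12.05 at 4 h, where 10.22 came from the other compressed array. Apart from these 2 arrays, the 5 values at 4 h (11.52 to 12.05) lay above the 5 at 0 h (10.27 to 10.98), which held for 1.1% of probe sets. Averaged over doses, Klf9 was 1.05 ± 0.32 (SE, n = 6 against 6) log2 units higher at 4 h (adjusted p = 0.27). Without the compressed arrays the change was 0.99 ± 0.17 (n = 5 against 5, adjusted p = 0.011).

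Klf9 read lower at 24 h than at 4 h, without passing the test. At 24 h it read 11.02, 10.53 and 11.06 after 3 mg/kg and 11.51, 11 and 11.15 after 18 mg/kg. The 18 mg/kg arrays still lay above their 0 h arrays, as for 5.53% of probe sets. Without the compressed arrays the change from 4 to 24 h was -0.66 ± 0.22 at 3 mg/kg (n = 3 against 3, adjusted p = 0.37) and -0.73 ± 0.24 at 18 mg/kg (n = 3 against 2, adjusted p = 0.86). With all arrays it was -0.66 ± 0.45 (adjusted p = 1) and -0.15 ± 0.45 (n = 3 against 3, adjusted p = 0.89), and the 18 mg/kg arrays overlapped. At 48 h the values were 11.34, 10.73 and 11.12, and 11.29, 10.47 and 11.13. The other 2 Klf9 probe sets were dim in liver (mean log2 intensity 5.05 and 5.12) and their both-dose changes did not pass the test at any time.

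Fkbp5 in liver read 7.4, 6.91 and 8 at 0 h and 8.22, 8.03 and 8.28 at 4 h in the 3 mg/kg arm, where 6.91 came from a compressed array. In the 18 mg/kg arm the values were 7.96, 7.29 and 8.11, then 8.72 (compressed), 8.34 and 9.84. Neither arm overlapped, which held for 9.51% and 7.04% of probe sets in that direction. Across the arms the arrays did overlap (8.03 at 4 h after 3 mg/kg, 8.11 at 0 h in the 18 mg/kg arm). The change was 0.74 ± 0.34 at 3 mg/kg (1.67-fold, n = 3 against 3, adjusted p = 0.34) and 1.18 ± 0.34 at 18 mg/kg (2.27-fold, n = 3 against 3, adjusted p = 0.39). With those 2 arrays left out these were 0.47 ± 0.35 (1.39-fold, n = 3 against 2, adjusted p = 0.70) and 1.30 ± 0.35 (2.47-fold, n = 2 against 3, adjusted p = 0.38). Averaged over doses it was 0.96 ± 0.24 (1.94-fold, n = 6 against 6, unadjusted p = 0.00059, adjusted p = 0.14). Without the compressed arrays it was 0.89 ± 0.25 (adjusted p = 0.16), and the call was reached on leaving out 1 other array, 3 mg/kg 0 h replicate 3 (1.1, adjusted p = 0.03). That omission leaves the compressed array and 1 other as the 3 mg/kg control. Leaving out 1 array at a time gave 14 to 360 calls over all probe sets, against 29 with all arrays. By 24 h the Fkbp5 values were 7.8, 7.13 and 7.65, and 7.79, 8.42 and 8.42, so the arrays of each arm overlapped those at 0 h. The second Fkbp5 probe set, not much dimmer in liver (mean 7.53 against 7.99), showed the single high 18 mg/kg 4 h array (8.83 where the first read 9.84). Its arrays did not separate in either arm. After 18 mg/kg they read 7.77, 7.46 and 8.83 at 4 h against 7.58, 7.64 and 7.09 at 0 h. After 3 mg/kg they read 7.81, 7.69 and 7.3 at 4 h against 7.41, 7.69 and 7.67 at 0 h.

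Nr3c1, the receptor itself, gave the only call among members over the 12 changes from 0 h, in liver at 48 h after 3 mg/kg. It read 9.45, 8.24 and 9.96 at 0 h and 10.21, 10.18 and 10.49 at 48 h. The change was 1.07 ± 0.30 (2.1-fold, n = 3 against 3, adjusted p = 0.035). All 48 h arrays lay above all 0 h arrays, as for 16.9% of probe sets, and 9.34% were called in this comparison. The 0 h value of 8.24 is from a compressed array. Without the 2 compressed arrays the change was 0.58 ± 0.23 (adjusted p = 0.12), with 0 of 5 members called and 4.42% of probe sets called. The call was also lost on leaving out any 1 of the 48 h arrays (adjusted p 0.083, 0.065 and 0.14). In the 18 mg/kg arm Nr3c1 read 10.22, 9.75 and 10.42 at 0 h and 10.51, 10.09 and 10.08 at 48 h, and the arrays overlapped. Its 18 mg/kg 4 h arrays were close together at 9.98, 10.01 and 9.99. The 0 h groups themselves differed by 0.91 ± 0.30 (18 minus 3 mg/kg, n = 3 against 3, adjusted p = 0.12), and by 0.42 ± 0.23 without the compressed array (adjusted p = 0.39). The second Nr3c1 probe set was dim (mean 4.78 in liver).

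Sgk1 had the largest SD among members over all liver arrays (0.96), and it did not follow Fkbp5 and Klf9. It ran from 7.19, in a compressed array, to 10.99. Without the 2 compressed arrays it ran from 8.4 to 10.99, and Fkbp5 from 7.13 to 9.84. At 4 h after 18 mg/kg Sgk1 read 7.53 (compressed), 10.01 and 8.78, all below the 0 h values of 10.32, 10.28 and 10.63. The change was -1.63 ± 0.63 (n = 3 against 3, adjusted p = 0.44), and -1.01 ± 0.47 without the compressed array (n = 2 against 3, adjusted p = 0.89). 4.33% of probe sets had all 18 mg/kg 4 h arrays below all 0 h arrays. In the 3 mg/kg arm the 4 h arrays (9.04, 9.59 and 10.06) overlapped the 0 h arrays (9.78, 7.19, compressed, and 9.99). The change there was 0.58 ± 0.63 (adjusted p = 0.64), and -0.32 ± 0.47 without the compressed array (n = 3 against 2, adjusted p = 0.87). At 24 h after 3 mg/kg it read 10.63, 10.12 and 10.99, above every 0 h array (7.36% of probe sets), with a change of 1.59 ± 0.63 (n = 3 against 3, adjusted p = 0.17). Without the compressed array this was 0.70 ± 0.47 (adjusted p = 0.52). 1 array of the 18 mg/kg 24 h group was low at 8.4 while the other 2 read 10.73 and 10.19.

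Tsc22d3 in liver read 9.32, 8.73 and 9.16 at 0 h and 9.42, 9.48 and 10.03 at 4 h after 3 mg/kg, with no overlap, as for 9.51% of probe sets. The change was 0.57 ± 0.30 (1.49-fold, n = 3 against 3, adjusted p = 0.37), and 0.40 ± 0.22 without the compressed array (adjusted p = 0.58). After 18 mg/kg the 4 h arrays (8.14, compressed, 9.34 and 9.65) overlapped the 0 h arrays (9.52, 9.66 and 9.49). Group means over the whole course stayed between 9.04 and 9.74.

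In cortex, no member passed the test in any of the 6 changes from 0 h. The share of all probe sets called was 0, 0.0741 and 0% at 4, 24 and 48 h after 3 mg/kg and 0% at each time after 18 mg/kg. At 3 mg/kg, 1, 0 and 0 of 5 members had an unadjusted p under 0.05 at the successive times, where 12.6%, 14.4% and 13% of probe sets did. At 18 mg/kg 1 of 5, Sgk1, did so each time, where 11%, 5.99% and 16.6% of probe sets did. Members varied less than in liver. Averaged over doses at 4 h, 0 of 5 members were called against 0% of probe sets, and the median member change was 0.21 against 0.0091 over all genes.

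**Figure D2:**
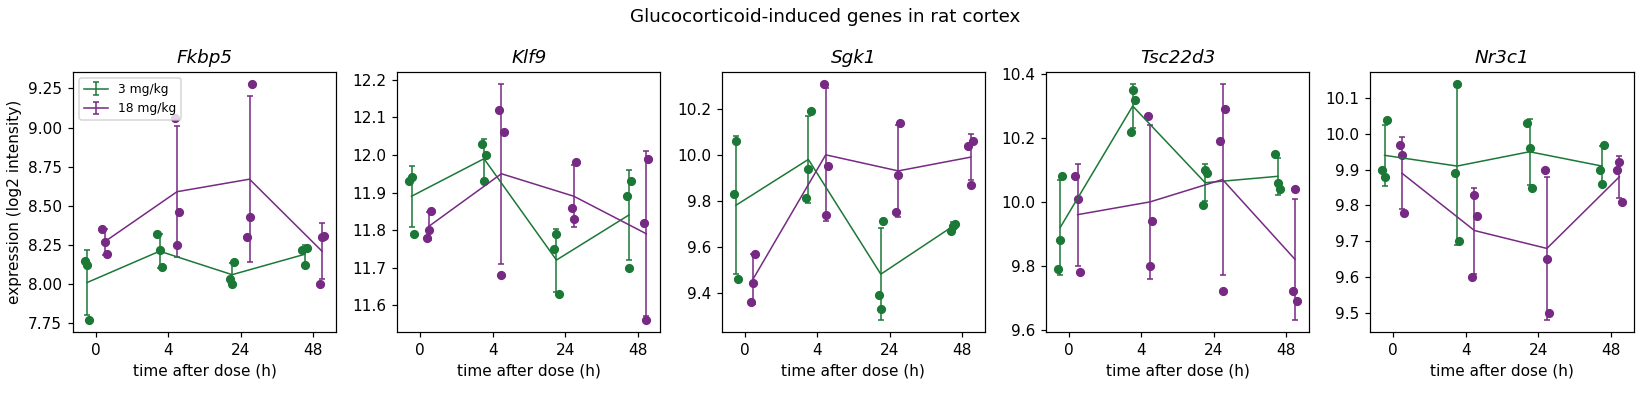
Log2 intensity of the 5 measured members in cortex by hours after dosing. Points are arrays (green 3 mg/kg, purple 18 mg/kg), lines join group means and bars are SDs of 3 arrays. Sgk1 after 18 mg/kg lies above its 0 h arrays at each later time, while Nr3c1 and Klf9 groups overlap at most times.

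Sgk1 had the most sustained difference in cortex, in the 18 mg/kg arm. It read 9.36, 9.44 and 9.57 at 0 h. It then read 10.31, 9.74 and 9.95 at 4 h, 9.75, 9.91 and 10.14 at 24 h, and 10.04, 9.87 and 10.06 at 48 h. All 9 later arrays lay above all 3 at 0 h. Taken time by time, 8.77%, 4.33% and 6.8% of probe sets had all later arrays above 0 h. These comparisons share the same 3 arrays at 0 h, the lowest Sgk1 group in cortex (9.46 ± 0.11, SD). The shares therefore do not give how many probe sets lay so at every later time. The changes were 0.54 ± 0.16 (adjusted p = 0.45), 0.47 ± 0.16 (adjusted p = 0.82) and 0.53 ± 0.16 (adjusted p = 0.12), each with n = 3 against 3. Leaving out 1 array at a time gave 0 to 2146 calls over all probe sets at 48 h. The adjusted p of Sgk1 there was 0.05, just past the threshold, without replicate 2 of the 48 h group, an array rich in liver transcripts. Without all 6 such arrays the changes at 4 and 24 h were 0.68 ± 0.17 (adjusted p = 0.39) and 0.57 ± 0.17 (adjusted p = 0.21), each with n = 2 against 3, and the 48 h change was 0.58 ± 0.22 (n = 1 against 3, adjusted p = 0.26), the lone array being assumed to vary like the others.

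After 3 mg/kg cortical Sgk1 read 9.83, 10.06 and 9.46 at 0 h. It read 9.81, 9.94 and 10.19 at 4 h, 9.39, 9.33 and 9.71 at 24 h, and 9.67, 9.69 and 9.7 at 48 h. Each later group overlapped 0 h. The 0 h groups of the 2 doses differed by -0.32 ± 0.16 (18 minus 3 mg/kg, n = 3 against 3, adjusted p = 0.99). A measure of RNA integrity moved with the 18 mg/kg values. The gap between 3' and 5' actin control probe sets was 1.86 to 3.6 at 0 h and 2.08 to 4.61 in the later arrays of that arm. With this gap as a covariate the Sgk1 changes were 0.40, 0.38 and 0.34 at 4, 24 and 48 h (adjusted p 1, 0.77 and 0.45).

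Fkbp5 in cortex stood out in single arrays. At 4 h after 18 mg/kg replicate 1 read 9.06 while the other 2 read 8.25 and 8.46, and at 24 h replicate 3 read 9.28 while the other 2 read 8.3 and 8.43. The 0 h arrays read 8.35, 8.27 and 8.19. The second Fkbp5 probe set was high in the same arrays, at 7.2 against 6.35 and 6.72, and at 7.32 against 6.35 and 6.63. The group changes were 0.32 ± 0.20 (n = 3 against 3, adjusted p = 0.50) and 0.40 ± 0.20 (adjusted p = 0.82), and both overlapped 0 h. The low array of each group, 8.25 and 8.3, was among those rich in liver transcripts. Without these the changes were 0.49 ± 0.21 (n = 2 against 3, adjusted p = 0.40) and 0.58 ± 0.21 (adjusted p = 0.25), with all later arrays above 0 h, as for 15% and 13.7% of probe sets. The arrays kept at 24 h had actin gaps of 4.18 and 3.64, above every 0 h array of that arm (1.86 to 3.6). The array left out there had a gap of 2.08. At 4 h the gaps of the kept arrays (4.03 and 3.33) overlapped those at 0 h. The part of RNA integrity in these Fkbp5 changes was not tested. In the 3 mg/kg arm all 12 arrays lay between 7.77 and 8.32.

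Tsc22d3 in cortex read 9.79, 9.88 and 10.08 at 0 h and 10.22, 10.35 and 10.32 at 4 h after 3 mg/kg, with no overlap (6.47% of probe sets). The change was 0.38 ± 0.14 (1.3-fold, n = 3 against 3, adjusted p = 0.36). At 24 h it read 9.99, 10.1 and 10.09. After 18 mg/kg the 4 h arrays (10.27, 9.8 and 9.94) overlapped the 0 h arrays (10.08, 10.01 and 9.78).

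Cortical Nr3c1 and Klf9 had group means within a narrow range. Nr3c1 group means ran from 9.68 to 9.95, with a largest change of -0.21 ± 0.11 at 24 h after 18 mg/kg (n = 3 against 3, adjusted p = 0.82). Without the array rich in liver transcripts this was -0.32 ± 0.13 (n = 2 against 3, adjusted p = 0.28), with both later arrays below 0 h, as for 13.4% of probe sets. Both of those later arrays also had actin gaps above every 0 h array of that arm. The part of RNA integrity in this Nr3c1 change was not tested. Klf9 group means ran from 11.72 to 11.99. At 24 h after 3 mg/kg its arrays (11.75, 11.79 and 11.63) lay just below the 0 h arrays (11.93, 11.94 and 11.79), as for 9.14% of probe sets, with a change of -0.16 ± 0.11 (adjusted p = 0.50). At 4 h after 18 mg/kg the Klf9 change was 0.14 ± 0.11 (n = 3 against 3, adjusted p = 0.58). Without the array rich in liver transcripts it was 0.28 ± 0.10 (n = 2 against 3, adjusted p = 0.40), with both later arrays above 0 h, where 15% of probe sets lay so.

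**Figure D3:**
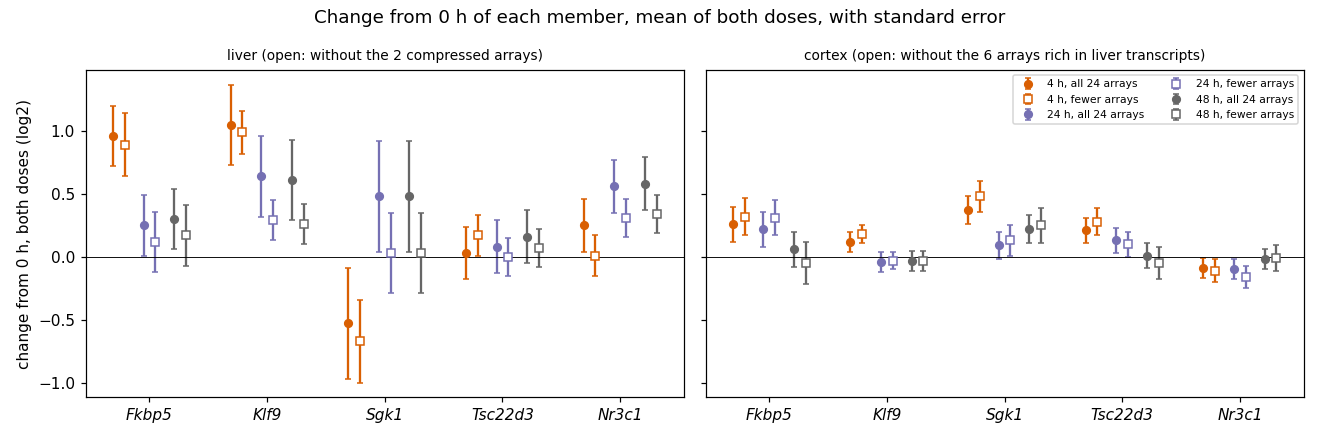
Change from 0 h (log2) of the 5 measured members, averaged over both doses, in liver and cortex, with standard errors. Filled circles use all 24 arrays of a tissue, open squares leave out the 2 compressed liver arrays or the 6 cortex arrays rich in liver transcripts. In liver Fkbp5 and Klf9 lie near 1 at 4 h, and in cortex no change exceeds 0.48.

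The order of the 8 group means was compared with the spread within groups. In liver, 18 mg/kg 4 h was the highest Fkbp5 group (8.97 ± 0.78, SD, n = 3) and 3 mg/kg 0 h the lowest (7.44 ± 0.55), and no neighbouring pair differed by more than the larger of its SDs. For Klf9 in liver the 2 highest groups were 3 mg/kg 4 h (11.53 ± 0.014) and 18 mg/kg 4 h (11.37 ± 1.0), and the lowest was 3 mg/kg 0 h (9.86 ± 1.2). For Sgk1 they ran from 8.77 ± 1.2 (18 mg/kg 4 h) to 10.58 ± 0.44 (3 mg/kg 24 h). In neither did neighbours differ beyond their SDs. The 3 mg/kg 0 h group was also the lowest for Nr3c1 (9.22 ± 0.88), and its SD includes a compressed array. In cortex the highest Fkbp5 groups were 18 mg/kg 24 h (8.67 ± 0.53) and 4 h (8.59 ± 0.42). The lowest Sgk1 group was 18 mg/kg 0 h (9.46 ± 0.11), and the highest Tsc22d3 group, 3 mg/kg 4 h (10.3 ± 0.068), exceeded its neighbour beyond the SD.

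No member's time course was shown to differ between the doses. The F test over 4, 24 and 48 h gave adjusted p values of 0.23 to 0.67 in cortex and 0.51 to 0.66 in liver, while 0.00322% and 0.00966% of probe sets were called. The smallest was cortical Sgk1 (unadjusted p = 0.012, adjusted p = 0.23). Its change from 0 h was larger after 18 than 3 mg/kg by 0.78 ± 0.22 at 24 h (adjusted p = 0.25, with 0% of probe sets called) and by 0.62 ± 0.22 at 48 h (adjusted p = 0.12, with 1.7% of probe sets called). These reached an adjusted p of 0.042 without 18 mg/kg 24 h replicate 1 and 0.029 without 3 mg/kg 0 h replicate 3, respectively. The shares just given are those with all arrays. Leaving out 1 array at a time took the calls over all probe sets as high as 1351 at 24 h and 4239 at 48 h. The adjusted p of cortical Sgk1 ran as high as 0.6 and 0.31 over those omissions. Under other settings, the actin gap as a covariate among them, its differences fell as low as 0.57 and 0.35. Adjusted p values there reached 0.93 and 0.8. In liver the 18 mg/kg change in Fkbp5 at 4 h exceeded the 3 mg/kg change by 0.44 ± 0.48 (adjusted p = 0.56), and by 0.83 ± 0.50 without the compressed arrays (adjusted p = 0.99). For Sgk1 there the differences at 4 and 24 h were -2.21 ± 0.88 (adjusted p = 0.27) and -2.23 ± 0.88 (adjusted p = 0.60). Leaving out the compressed arrays gave -0.69 ± 0.67 (adjusted p = 0.99) and -1.33 ± 0.64 (adjusted p = 0.52). For Klf9 at 4 h it was -1.24 ± 0.64 (adjusted p = 0.28), and 0.03 ± 0.35 without those arrays (adjusted p = 1). For Tsc22d3 at 4 h the difference was -1.09 ± 0.42 (adjusted p = 0.27), and -0.46 ± 0.32 without the compressed arrays (adjusted p = 0.99).

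A tissue difference in response was shown for no member with all arrays in the fit. In a fit of all 48 arrays the liver change minus the cortex change at 4 h, both doses, was 0.70 ± 0.29 for Fkbp5 (adjusted p = 0.58), 0.93 ± 0.34 for Klf9 (adjusted p = 0.50) and -0.90 ± 0.48 for Sgk1 (adjusted p = 0.73). 0.0612% of probe sets were called. Without the 2 compressed arrays Klf9 passed (0.87 ± 0.18, adjusted p = 0.028, with 0.193% of probe sets called). Without the 6 cortex arrays rich in liver transcripts as well, it did not (0.81 ± 0.20, adjusted p = 0.17, with 0.0709% called). The level at 0 h did differ for some members. Klf9 was 1.45 ± 0.24 log2 units higher in cortex (n = 6 against 6, adjusted p = 1.9e-06), and Tsc22d3 was 0.62 ± 0.17 higher (adjusted p = 0.001). Fkbp5 was 0.53 ± 0.20 higher (adjusted p = 0.018), a call lost when all 48 arrays were quantile normalized together (0.20, adjusted p = 0.34). The second, dimmer Fkbp5 probe set went the other way (-1.22 ± 0.16, adjusted p = 2.5e-08). Sgk1 (-0.08 ± 0.34) and Nr3c1 (0.24 ± 0.16) did not pass. Without the 2 compressed arrays (n = 6 against 5) the difference was 1.10 ± 0.13 for Klf9 (adjusted p = 2.1e-09), 0.54 ± 0.13 for Tsc22d3 (adjusted p = 0.00034) and 0.40 ± 0.21 for Fkbp5, whose call was lost (adjusted p = 0.075). It was -0.53 ± 0.25 for Sgk1 (adjusted p = 0.053) and 0.00 ± 0.12 for Nr3c1 (adjusted p = 0.99). These calls stand among 77.4% of probe sets that differed between the tissues, and 78.9% without the compressed arrays.

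Lists of related genes placed the members among their pathway, and all were drawn up with earlier results of these data known. Of 39 other measured glucocorticoid receptor targets, 21 had a change above 0 in liver at 4 h averaged over doses. Their median change was 0.023 against 0.025 over all genes. Without the compressed arrays 26 were above 0, with a median of 0.094 against 0.035. With all arrays 1 of the 39 was called, where 0.0934% of probe sets were. It was the metallothionein Mt2A, which binds zinc, and it rose. After 3 mg/kg it read 9.98, 8.6 and 10.62 at 0 h and 13, 12.86 and 12.37 at 4 h, and after 18 mg/kg 10.13, 10.72 and 11.06, then 11.69, 12.65 and 13.16. All 4 h arrays lay above all 0 h arrays, and without the compressed arrays 1.1% of probe sets lay so. The change over both doses was one of 2.44 ± 0.40 (5.41-fold, n = 6 against 6, adjusted p = 0.0087). Without the compressed arrays Mfsd2a also passed (1.71 ± 0.34, adjusted p = 0.035, against 1.66 ± 0.38 and 0.096 with all arrays), a lipid transporter. Of 16 hepatic targets of metabolism, Sds, which breaks down serine for gluconeogenesis, rose by 2.69 ± 0.51 (6.45-fold, n = 6 against 6, adjusted p = 0.046). Its 18 mg/kg arrays overlapped at the compressed one (7.6, 6.33 and 9 at 0 h, then 8.35, 10.13 and 11.9). Without the compressed arrays Igfbp1 also passed (2.19 ± 0.41, adjusted p = 0.02), where all arrays gave 1.40 ± 0.55 (adjusted p = 0.44). All 16 changes were then above 0, with a median of 0.29 against 0.035 over all genes, and with all arrays 14 of 16 were, with a median of 0.30 against 0.025. Tat, the classical hormone-induced liver enzyme, had a difference of 0.12 ± 0.40 without the compressed arrays (adjusted p = 0.95) and -0.03 ± 0.41 with them (adjusted p = 0.99).

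The clock genes that were called changed by more than any member. Of 16 measured in liver, 4 rose and 1 fell at 4 h, both doses, with all arrays, where 0.0934% of probe sets were called. Over the 16, 7 changes were above 0, with a median of -0.13 against 0.025 over all genes. The nuclear receptor Nr1d1, a repressor in the clock, read 5.16 to 6.41 in the 6 arrays at 0 h and 7.6 to 9.19 in the 6 at 4 h. It rose by 3.18 ± 0.35 (9.06-fold, n = 6 against 6, adjusted p = 7.5e-05), and its relative Nr1d2 by 2.44 ± 0.32 (adjusted p = 0.00076). Per3 rose by 1.87 ± 0.18 (adjusted p = 2e-05) and Cry1 fell by 1.89 ± 0.20 (adjusted p = 6.2e-05). Dbp, a clock output factor, was the fourth that rose (1.78 ± 0.27, adjusted p = 0.0039). In cortex none of 16 passed, and Dbp had the smallest p (0.82 ± 0.13, unadjusted p = 4.4e-06, adjusted p = 0.14). The part of clock time in the members' changes was not tested, since the labels give no hour of sampling.

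**Figure D4:**
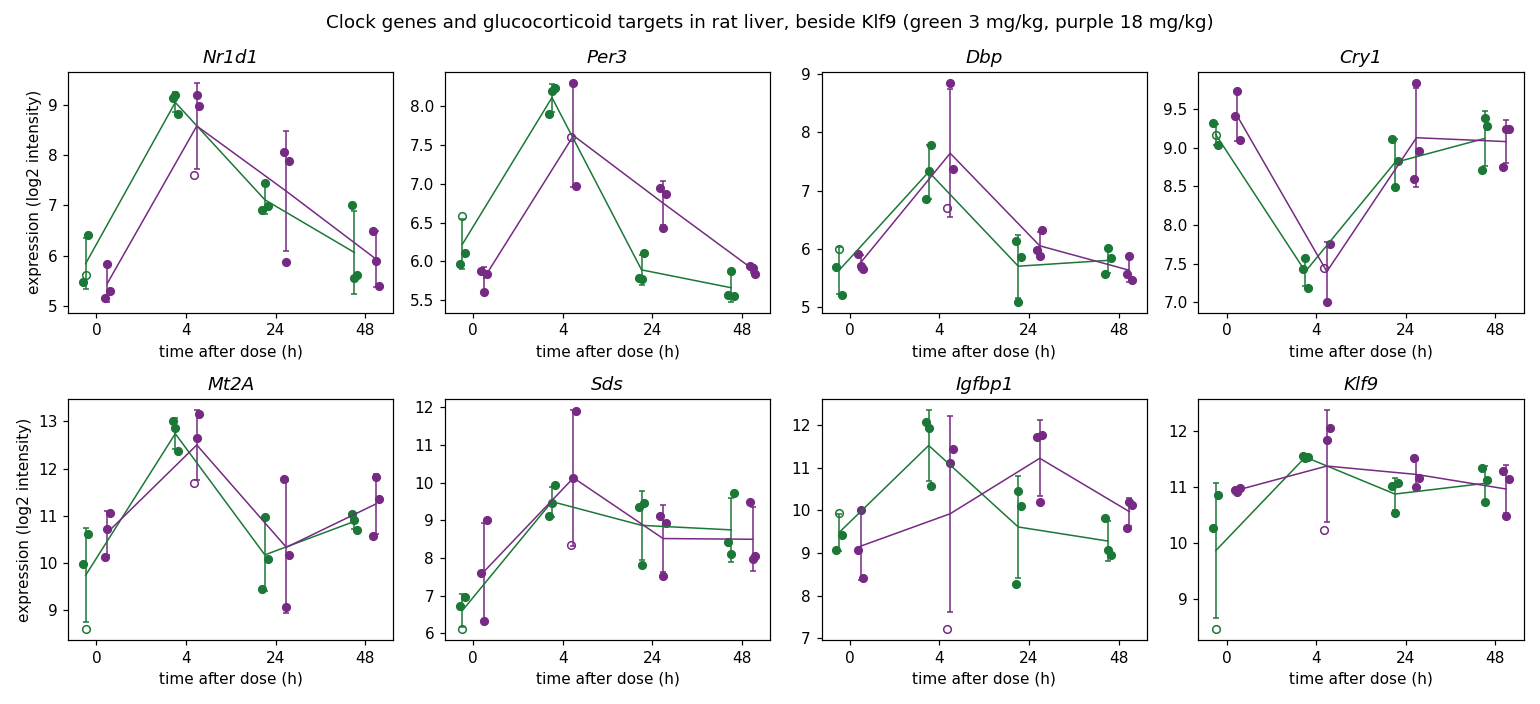
Log2 intensity in liver of 4 clock genes, 3 glucocorticoid targets and Klf9 by hours after dosing. Points are arrays (green 3 mg/kg, purple 18 mg/kg, open for the 2 compressed arrays), lines join group means and bars are SDs of 3 arrays. Cry1 is low and the other clock genes are high at 4 h in both dose arms.

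The remaining lists held no call in the liver changes averaged over doses. Among 16 receptor complex and co-regulator genes the smallest p was for Nr3c2, the mineralocorticoid receptor, at 48 h (0.72 ± 0.26, adjusted p = 0.27). Among 9 genes of corticosteroid supply it was Abcb1a, an efflux pump, at 48 h (0.99 ± 0.21, adjusted p = 0.11). Among 15 Krueppel-like and related zinc finger genes it was Klf10 over all later times (0.99 ± 0.29, adjusted p = 0.14). Among 13 relatives of the members it was Sgk2 at 4 h (-0.77 ± 0.22, adjusted p = 0.21), and among 7 thyroid hormone targets Me1 at 4 h (-0.69 ± 0.23, adjusted p = 0.33). In cortex 0 genes of any list were called. The smallest p values there belonged to Sult1a1 (0.71 ± 0.22, adjusted p = 0.98), Ass1 (0.78 ± 0.33, adjusted p = 0.98), Stip1 (-0.21 ± 0.10, adjusted p = 0.71), H6pd (0.29 ± 0.10, adjusted p = 0.70), Klf10 (-0.56 ± 0.24, adjusted p = 0.98), Pgr (-0.28 ± 0.10, adjusted p = 0.49) and Me1 (0.27 ± 0.09, adjusted p = 0.70). Liver transcripts moved with the cortical values at 4 h, both doses, where all 8 hepatocyte markers were above 0 with a median of 1 and the 16 hepatic targets had a median of 0.089. Without the 6 cortex arrays rich in them these medians were -0.74 and -0.075, and 0 of 8 markers were above 0. The cut at 8 kept 18 mg/kg 0 h replicates 1 and 3, with hepatocyte marker means of 6.17 and 7.54. The 4 h arrays that were kept read 4.95 to 5.24. In the fit without the 6 arrays Sult1a1 at 4 h was at 0.57 ± 0.12 (adjusted p = 0.81) and Ass1 at 0.38 ± 0.21 (adjusted p = 0.95).

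Members were partly alike across the arrays of a tissue. These correlations are descriptions over 24 arrays that share groups. In liver without the compressed arrays (22 arrays) Pearson's r was 0.68 for Fkbp5 with Klf9, 0.47 for Sgk1 with Nr3c1 and -0.46 for Sgk1 with Klf9. With the compressed arrays the last was 0.41. In cortex r was 0.53 for Fkbp5 with Sgk1, -0.74 for Fkbp5 with Nr3c1 and -0.62 for Sgk1 with Nr3c1. Spearman's rho for these pairs was 0.37, -0.46 and -0.61. Between tissues, deviations of same-numbered arrays from their group means gave r from -0.4 to 0.13 over 24 pairs.

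The genes most like each member were ranked by Pearson's r over the 24 arrays among 13982 genes. In liver they were C12h7orf50, Riox2 and Vcam1 for Fkbp5 (r 0.834 to 0.809), Zfp496, Cyp8b1 and Rnd2 for Klf9 (0.923 to 0.9), and Tjp1, Aadat and Nnt for Nr3c1 (0.969 to 0.961). For Sgk1 they were Nfe2l2, Rab38 and Lyst (0.868 to 0.862) and for Tsc22d3 Fyttd1, Slc35a1 and Il1r1 (0.852 to 0.823). Over the 22 uncompressed arrays the same pairs had r of 0.624 to 0.908. In cortex they were Gpatch4, Gpd1 and Cdk5rap3 for Fkbp5 (0.899 to 0.873), Plxna2, Rere and Med12 for Sgk1 (0.884 to 0.826) and Fv1, Tlcd3a and Fst for Tsc22d3 (0.855 to 0.813). For the Fkbp5 genes Spearman's rho was lower, at 0.633, 0.736 and 0.641. Nr3c1 was most like Csf1, Calml5 and Herc3 (0.848 to 0.795), and Klf9 most like Slc2a1, Bcr and Anxa11 (0.719 to 0.702). In neither tissue was any gene named here also among its member's top 3 by r over the 8 group means.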

How the data were processed

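RNA from cortex and liver was hybridised to Affymetrix rat arrays, 24 per tissue. The deposited table holds log2 values for 31099 probe sets, and RMA and Partek are named, per the submitters' processing notes, without versions or settings. Symbols came from the platform annotation: 20826 probe sets had 1 symbol, 436 several and 9780 none. 57 control probe sets were left out of the tests. Each tissue was fitted with limma 3.58.1 in R 4.3.3 (8 groups of 3 arrays, moderated tests, Benjamini-Hochberg over all 31042 probe sets, threshold 0.05), with no further normalization or filter. A fit of all 48 arrays gave the tissue differences. The code was tested on simulated data. Members and gene lists were chosen with earlier results of these data known. Named genes were the members, up to 4 called genes per list and tissue (or the smallest p), and the 3 genes most like each member; Mfsd2a, Igfbp1, Tat and Dbp in liver were added after their values were seen. Same-numbered arrays of different groups did not deviate together (median correlations of -0.044 in cortex and 0.006 in liver), so numbers were not used as pairs. The number of arrays limits the precision.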

Additional observations from a re-analysis of the deposited data

Results flagged for a closer look

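The change from 0 h to 48 h in cortex differed between the doses for 529 probe sets, and 0 members were among them. The F test of a dose difference over the time course called 1 probe set in cortex and 3 in liver, and the F test of a tissue difference called 91 at 3 mg/kg, 40 at 18 mg/kg and 32 averaged over doses, again with 0 members. Groups of 3 arrays were not screened for single far values.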

How the results depend on the processing

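Counts of members called were recomputed for every comparison, and single members only where their unadjusted p was under 0.05. Leaving out 1 array at a time gave 0 to 1 calls in cortex (18 mg/kg 48 h, and the dose differences at 24 and 48 h, against 0). In liver it gave 0 to 2 (3 mg/kg 4 h; 3 mg/kg 48 h, against 1; both doses 4 h; both doses later; 0 h doses compared), 0 to 3 (3 mg/kg 24 h) and 0 to 1 (both doses 24 and 48 h; dose difference at 48 h). Most added calls came without 3 mg/kg 0 h replicate 3, which leaves a compressed array as 1 of 2 controls. The liver 3 mg/kg 48 h count fell from 1 to 0 with quantile normalization, with only the 2 groups compared, with both 0 h groups pooled and without the 2 compressed arrays. The both-dose 4 h count rose from 0 to 1 (Klf9) with quantile normalization, without the compressed arrays and with the actin gap as a covariate. That covariate gave 1 call at 3 mg/kg 4 h, 3 at 24 h and 4 at 48 h. It gave 1 for both doses at 24 h and 1 later. It gave 2 for the dose difference at 48 h and 4 between doses at 0 h. Over all 31042 probe sets, calls under settings other than leaving out 1 array reached 1774, 9781 and 14423 at those 3 mg/kg times. They reached 5639 for both doses at 24 h, 6386 later, 8975 for the dose difference and 8659 at 0 h. These are the highest counts over all such settings, not of the covariate alone. The member calls were therefore not shown to be particular to the members, and the cause was not tested.

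Among results with an unadjusted p under 0.05, directions reversed at dim other probe sets. The second Nr3c1 probe set gave -0.60, -0.26 and -0.65 in liver at 4, 24 and 48 h after 3 mg/kg, -0.16, -0.37 and -0.29 for both doses at 24 h, 48 h and later, 0.21 and 0.55 for the dose differences at 24 and 48 h, and -0.42 between doses at 0 h. Other Klf9 probe sets gave -0.16 at 4 h, -0.16 and -0.03 at 48 h after 3 mg/kg, -0.17 between doses at 0 h, and 0.07 in cortex from 4 to 24 h after 3 mg/kg.

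Counts over all probe sets were unsteady. In liver at 48 h after 3 mg/kg 2898 calls became 0 to 7764 without 1 array and 0 to 14423 under other settings. At 4 h, both doses, 29 became 14 to 360 and 22 to 85. In cortex the dose difference at 48 h went from 529 to between 0 and 4239. With the replicate number as a block 1 member was called in liver at 48 h after 3 mg/kg (Nr3c1, adjusted p = 0.029) and 0 in every other comparison within a tissue, as without it. Among weaker results, liver Sgk1 at 4 h and Fkbp5 at 24 h after 3 mg/kg changed sign without the compressed arrays (0.58 to -0.32 and 0.09 to -0.18), as did Klf9's dose difference at 4 h. The tissue difference at 4 h, both doses, went from 0 to 1 member (Klf9) without the compressed arrays and was 0 without the liver-rich cortex arrays too. The 3 alternatives chosen after seeing the data were the cortex fit without arrays rich in liver transcripts, the tissue fits without arrays that stand apart, and array quality weights, whose estimates stopped short of convergence. The weighted fits made further calls among the members and were not kept.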
